A study of Mus musculus with 6 samples.

Results

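Genes for the factors that start and extend protein synthesis were measured in quadriceps muscle, the knee extensor, with and without a torn anterior cruciate ligament (ACL), a ligament inside the knee. The members were the protein-coding rows whose symbol begins with Eif (eukaryotic initiation factor) or Eef (eukaryotic elongation factor) and a digit, without the eIF4E-binding proteins and without the X- and Y-linked copies of Eif2s3. This gave 64 of the 20015 rows, 50 of them Eif and 14 Eef. Of the 6 RNA-seq libraries, 3 are labelled ACL injured quadricep and 3 ACL non-injured quadricep, and each group has a library A, a library B and a library C. The labels name Mus musculus as the organism, yet the protocol and the design text describe human quadriceps, with the injured limbs sampled ahead of surgical reconstruction. The member genes carry mouse symbols and 63 of the 64 lie at that gene's position in the mouse annotation GENCODE M21 (build mm10), give or take 1 base at the end, so they are described as mouse genes. Positions of rows come from the annotation used for counting, so they cannot show which species was sequenced. Strain, genotype, age, sex, time since injury, the number of animals and whether both groups came from the same animals are not in the labels, so the p-values here refer to the variation among these 6 libraries and that may be technical only.

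Translation begins when eIF2 brings the initiator tRNA to the small ribosomal subunit, eIF3 holds that subunit together with the other factors, and the eIF4 factors bind the mRNA cap and unwind the leader. Elongation then runs on eEF1A, which carries each aminoacyl-tRNA to the ribosome, on eEF1B, which recharges eEF1A with GTP, and on eEF2, which moves the ribosome along the mRNA. Skeletal muscle is known for replacing the widely expressed eEF1A1 by a closely related form, eEF1A2, after birth. Much of the control of these proteins is by phosphorylation, which RNA-seq does not measure. The series is titled for low protein synthesis and anabolic signalling in quadriceps atrophy after ACL tear, and the comparison asks whether the mRNAs of the factors differed between the groups.

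Each library held 6.45 to 8.75 M counts. Markers of muscle fibres (Acta1, Ckm, Myh1, Myh4, Mylpf, Tnnt3 and Ttn) summed to between 163546 and 171309 CPM (counts scaled to 1 M per library) in injured and between 179345 and 186288 in non-injured libraries, so the RNA was that of muscle by these markers. Mitochondrial genes took 9.53% to 11.2% of the counts in injured and 6.20% to 7.52% in non-injured libraries, and the part of this in the results was not tested. Levels below are CPM scaled by TMM, a factor that corrects for differences in library composition. In bulk RNA, fewer cells of a type and less RNA per cell cannot be told apart. The smallest adjusted p among the initiation factors was 0.313 and among the elongation factors 0.0618. By edgeR's quasi-likelihood test with Benjamini-Hochberg adjustment over all 16095 genes tested, 0 of 49 initiation and 0 of 13 elongation factor genes passed an adjusted p of 0.05. Over all genes 0.715% passed as higher and 0.0311% as lower, 0.746% in all, so a count of 0 among 62 members is near the background. At an unadjusted p under 0.05, 2 initiation genes were lower (Eif4a2 and Eif4e3) and 1 elongation gene, Eef1a1, was higher, against 15.4% of all genes. DESeq2 called 1 member, Eef1a1, and limma-voom called 0. Among the same 16095 genes DESeq2 called 252 as higher and 75 as lower, and limma-voom 53 and 6. With the letter as a block, Eef1a1 passed as higher, 1 of 13 elongation and 0 of 49 initiation genes, where 3.21% of all genes passed as higher, 2.65% as lower and 5.86% in all. The labels do not say that libraries of the same letter are pairs. The other 2 members, Eif5a2 (the minor eIF5A form) and Eef1akmt3 (a methyltransferase of eEF1A), had too few counts to be tested.

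Initiation factor genes had a median log2 fold change (injured over non-injured) of 0.0015, with 25 positive and 24 negative, and elongation factor genes a median of 0.18, with 9 positive and 4 negative. The median over all genes tested was 0.0021. Standard errors of the log2 fold changes ran from 0.13 to 0.56, and 53 of 62 were under 0.25 while the other 9 were Eif4e and the 8 members with a mean under 50 counts. All genes with a mean of at least 1000 counts had a median of -0.14 and the 7 members among them one of -0.07, while in the step from 200 to 1000 counts the medians were -0.10 for all genes and 0.0015 for 23 members. Every injured library lay on the same side of every non-injured library in 5 of 49 initiation and 4 of 13 elongation genes (10.2% and 30.8%), against 21.5% of all genes. The 5 were Eif1a and Eif2b5 (higher) and Eif1ad, Eif2b1 and Eif3j1 (lower), and the 4, all higher, were Eef1a1, Eef2, Eef1d and Eef1aknmt. Genes whose groups lay apart with higher values in injured libraries made up 11.7% of all genes, and those with lower values 9.77%.

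**Figure D1:**
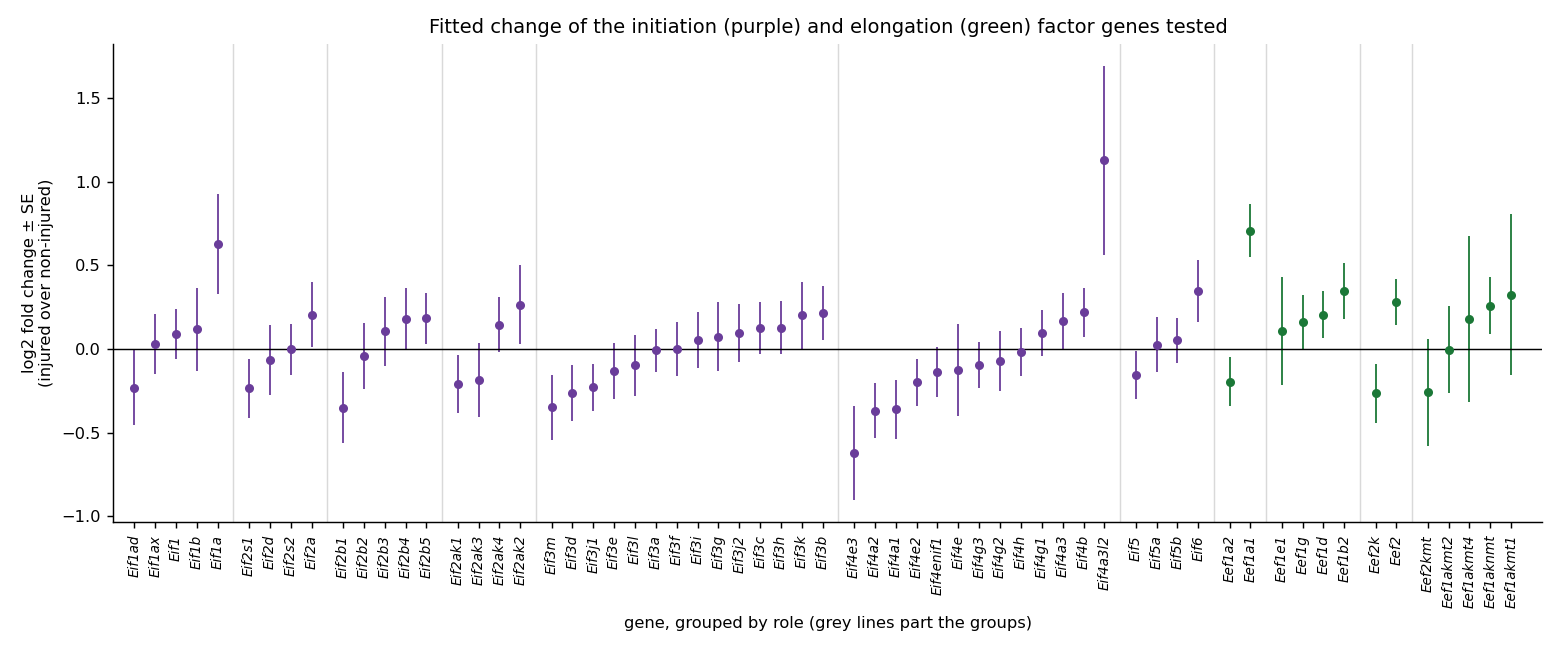
Log2 fold change (y axis, injured over non-injured, edgeR fit, bars show the standard error) of the 62 factor genes tested, grouped by role along the x axis. Signs are mixed in most roles and no member passed; Eef1a1 stands at 0.71, and the point highest on the axis, Eif4a3l2 at 1.13, is a gene with a mean of 13.2 counts and a standard error of 0.56.

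The elongation factor genes differed by form: the widely expressed Eef1a1 was higher in all 3 injured libraries and the muscle form Eef1a2 was not. Eef1a1 (chromosome 9, 78478449 to 78489152, minus strand, mm10) and Eef1a2 (chromosome 2, 181147653 to 181157015, minus strand) both encode eEF1A. Their promoters are shown because the mRNAs of the pair had opposite signs while their proteins do the same step. Each line below gives 280 bases, 250 before the RefSeq start and 30 from it, 5′ to 3′ on the gene's strand (RefSeq, build GRCm38.p6); capitals mark TATAA, searched on both strands, and CANNTG, the E-box core read by myogenic and other helix-loop-helix factors, which is its own reverse complement.
Eef1a1: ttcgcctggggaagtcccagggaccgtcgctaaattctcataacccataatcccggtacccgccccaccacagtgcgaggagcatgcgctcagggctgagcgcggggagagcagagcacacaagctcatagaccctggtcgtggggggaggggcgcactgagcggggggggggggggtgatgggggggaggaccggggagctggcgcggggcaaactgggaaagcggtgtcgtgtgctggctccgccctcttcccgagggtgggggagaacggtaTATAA
Eef1a2: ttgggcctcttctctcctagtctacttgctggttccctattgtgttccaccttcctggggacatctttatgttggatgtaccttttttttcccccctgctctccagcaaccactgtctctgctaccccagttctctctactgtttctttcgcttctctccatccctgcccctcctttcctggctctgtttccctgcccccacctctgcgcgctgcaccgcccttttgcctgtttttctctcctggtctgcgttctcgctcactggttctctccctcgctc
The Eef1a1 window is chr9:78481695-78481974 and the Eef1a2 window chr2:181156986-181157265. In Eef1a1 the single TATAA begins at base 26 counted from the RefSeq start, at the very end of the window. That start lies inside the gene as the deposited table bounds it, so longer transcript models of Eef1a1 begin further upstream. The Eef1a2 window holds neither motif, and its RefSeq start is the end coordinate of the gene in the table. The GC content was 66.4% in the Eef1a1 and 54.6% in the Eef1a2 window. Among all 32851 RefSeq windows of this length, 24.0% hold TATAA and 70.1% hold CANNTG. RefSeq windows were matched for 40 of 50 initiation genes, of which 5 held TATAA and 22 CANNTG, and for 10 of 14 elongation genes, of which 2 (Eef1a1 and Eef2) held TATAA and 5 CANNTG; a gene with several windows counts if any of them holds the motif. A match describes letters and no site of binding.

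Eef1a1 stood at 175, 120 and 156 CPM in injured libraries A, B and C and at 92.9, 96.6 and 86.7 CPM in non-injured A, B and C. All injured libraries lay above all non-injured ones, and the lowest injured library, B, was also the one nearest to its non-injured counterpart. The mean was 150 ± 28.0 CPM in the injured libraries and 92.1 ± 4.97 in the others (SD, n = 3), a log2 fold change of 0.71 ± 0.16 (SE), or 1.63-fold. By edgeR this gave an adjusted p of 0.0618, which missed the threshold, and with the letter as a block 0.69 ± 0.12 (SE) and an adjusted p of 0.00421. By p, Eef1a1 ranked 157 among the 16095 genes, first among the members. Fits without 1 library gave log2 fold changes from 0.57 to 0.85 with adjusted p from 0.0338 (without injured B) to 0.287 (without non-injured C). Over 19 alternatives the adjusted p ran from 4.96e-07 to 0.287, with 9 past the threshold. The lowest came from the block without pair B, a setting added after the data were seen that leaves out the letter with the smallest difference. Within letters A, B and C the log2 ratio of injured to non-injured CPM was 0.91, 0.31 and 0.84.

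Eef1a2, at rank 105 of all genes by mean CPM, stood at 497, 545 and 631 CPM in injured A, B and C and at 656, 686 and 576 in non-injured A, B and C. The groups overlapped, since injured C exceeded non-injured C, and the direction differed between letters. The log2 fold change was -0.19 ± 0.14 (SE, edgeR adjusted p 0.564). The counts of Eef1a2 were whole numbers in every library. Those of Eef1a1 were fractional, as happens where reads are shared between near-identical sequences, and processed pseudogenes of Eef1a1 exist; its values carry that uncertainty. The pseudogene Eef1a1-ps1 had 46.8, 55.2 and 57.1 counts in injured and 43.8, 39 and 21.6 in non-injured A, B and C, against 649 to 1146 counts of Eef1a1.

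**Figure D2:**
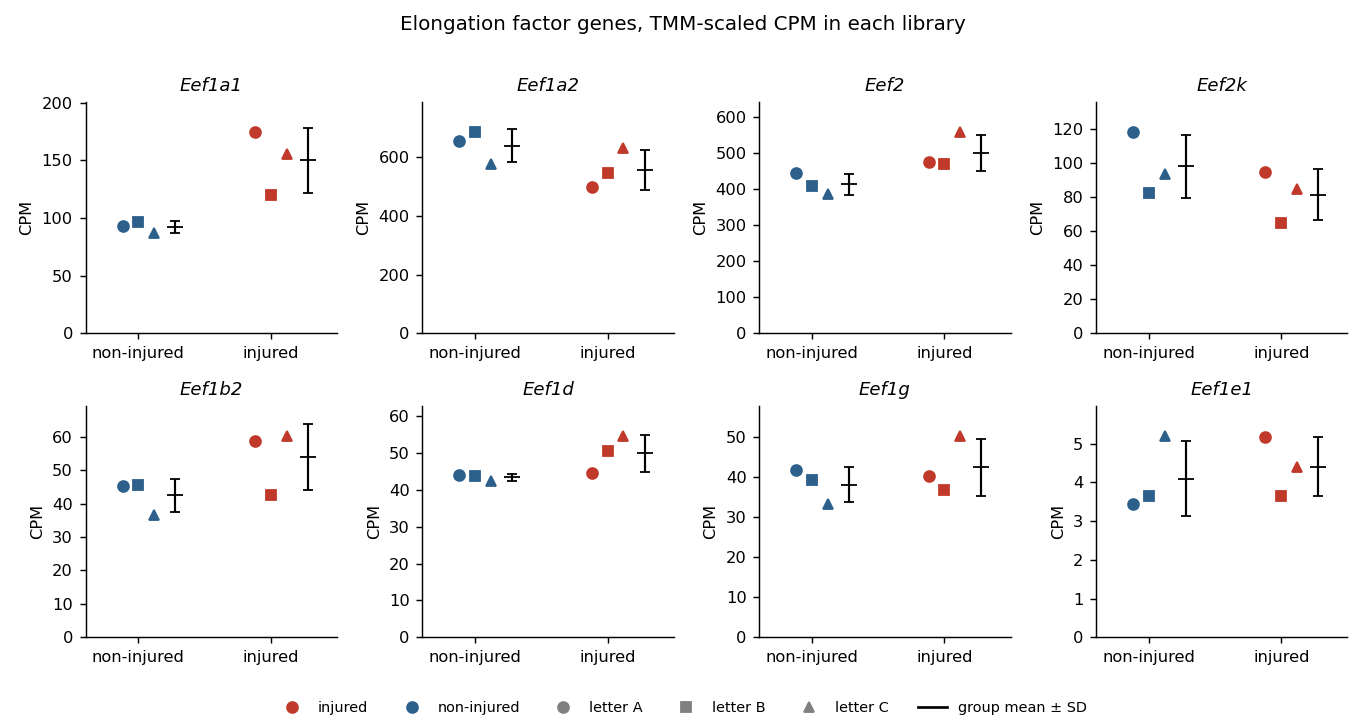
TMM-scaled CPM (y axes, from 0) of 8 elongation factor genes in each library, non-injured in blue and injured in red, with letters as shapes and the group mean ± SD (n = 3) as black bars. Eef1a1, Eef2 and Eef1d have all injured libraries above all non-injured ones, while Eef1a2 and Eef2k overlap.

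The ratio of the muscle form to the general form was lower in the injured library of every letter. Eef1a2 counts exceeded Eef1a1 counts 2.84, 4.55 and 4.05 times in injured A, B and C, and 7.06, 7.11 and 6.64 times in non-injured A, B and C. No injured library reached the lowest non-injured ratio, and the injured ratios spread more widely. The mean ratio was 3.81 ± 0.879 in injured and 6.94 ± 0.26 in non-injured libraries (SD, n = 3). On the log2 scale the difference was -0.89, with an exact two-sided permutation p of 0.1, the smallest that 3 against 3 libraries allow. The differences within letters A, B and C were -1.31, -0.64 and -0.71. An exact two-sided test that flips the signs of these 3 differences gave p = 0.25, the smallest it allows. Read counts of a gene grow with its length, so the levels were also set per kilobase of the principal GENCODE M21 transcript (1794 bases for Eef1a1 and 2084 for Eef1a2). Per kilobase, Eef1a2 still exceeded Eef1a1 3.28 ± 0.757 times in injured and 5.97 ± 0.224 times in non-injured libraries. Eef1a1 thus made up 21.3% ± 4.21 of the counts of the pair in injured and 12.6% ± 0.421 in non-injured libraries. The sum of both was 708 ± 68.7 CPM in injured and 731 ± 62.2 CPM in non-injured libraries, with overlapping values.

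**Figure D3:**
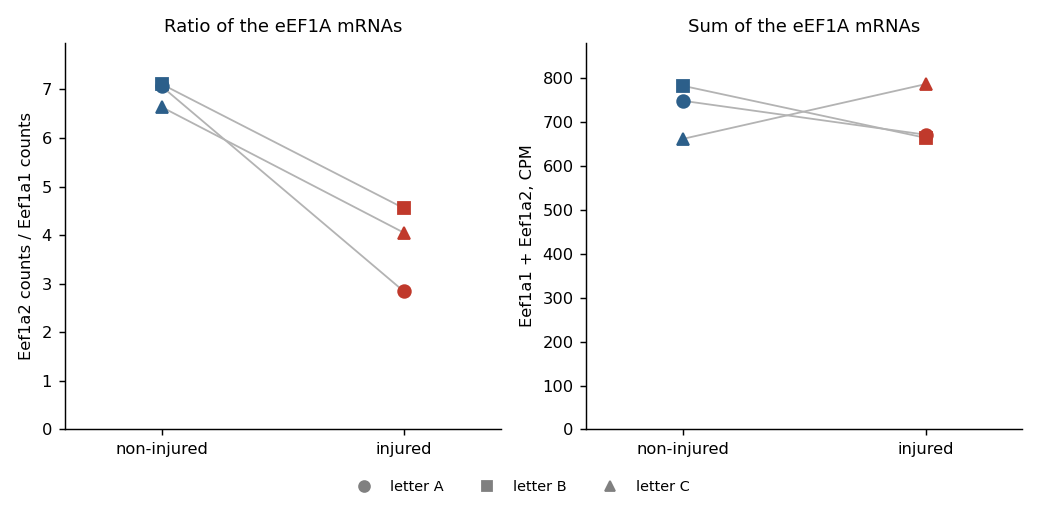
Left, ratio of Eef1a2 to Eef1a1 counts in each library; right, summed CPM of both genes; grey lines join libraries of the same letter. The ratio lies between 2.84 and 4.55 in injured and between 6.64 and 7.11 in non-injured libraries, whereas the sums overlap.

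Markers of some other cell types of muscle were higher in the injured libraries too. For the counts below, 0.715% of all genes passed as higher in the main fit and 3.21% with the letter block. Of 8 macrophage markers tested, 4 rose and 7 with the letter block, and the 9 in the table summed to between 96.1 and 170 CPM in injured and between 43.0 and 50.5 CPM in non-injured libraries. Of the 7 fibroblast markers 2 rose, the collagen genes Col1a1 (mean 207 against 35.1 CPM) and Col3a1 (253 against 56.7 CPM). All 7 together summed to between 445 and 731 CPM against 191 to 241, and most of this gap lay in the collagen genes. The signs of all 7 were positive, at 0.45 to 0.61 on the log2 scale for Pdgfra, Ly6a and Pi16. Dpt lay at 0.13 and Dcn at 0.0047. Of 3 tested markers of dividing cells 1 rose, and 3 with the block, and the 5 in the table summed to between 14.5 and 26.4 CPM against 3.31 to 4.92. Erythroid markers (1 of 5 rose, 4 with the block) overlapped at 132 to 323 against 71.1 to 151 CPM, endothelial markers (0 of 5 changed) at 73.3 to 83.9 against 66.6 to 77.7, and the 2 of 5 lymphocyte markers in the table at 2.41 to 4.42 against 1.37 to 5.47. All 7 muscle fibre markers were without a call, though their sum was lower in every injured library. Most of that sum was Ttn (mean 133404 against 143190 CPM), and the signs of the markers were mixed. The log2 fold change was positive for 2 of 7, Myh1 (0.20) and Ckm (0.0088), and ran from -0.018 (Acta1) to -0.31 (Myh4) in the others. No marker in the table was at 0 in every non-injured library, and Ccnb1 of the dividing cells was at 0 in at least 1 library. The part of these cells in the Eef1a1 values was not tested.

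The mRNAs of the remaining elongation machinery mostly had positive signs, with no call. Eef2 (chromosome 10, 81176631 to 81182499) encodes the translocase and stood at 475, 469 and 558 CPM in injured A, B and C and at 445, 407 and 386 in non-injured A, B and C. The groups did not overlap, but the lowest injured and the highest non-injured library were close. Its log2 fold change was 0.28 ± 0.14 (SE, edgeR adjusted p 0.359). Eef2k, the calcium-dependent kinase that inactivates eEF2, went the other way in sign: 94.6, 64.8 and 84.3 CPM in injured and 118, 82.0 and 93.4 CPM in non-injured A, B and C. It was lower in the injured library of each letter, yet the groups overlapped, at -0.26 ± 0.18 (SE, edgeR adjusted p 0.513); fits without 1 library ran from -0.40 (without injured A) to -0.12 (without injured B), and gave -0.39 without non-injured B and -0.13 without non-injured A. The ratio of Eef2 to Eef2k counts, looked at after the values were seen, was 5.02, 7.24 and 6.62 in injured and 3.77, 4.97 and 4.14 in non-injured A, B and C. Injured A and non-injured B lay next to each other in that order.

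The 3 subunits of eEF1B had positive signs, which for Eef1g turned without injured C. Eef1b2, which carries the exchange activity, stood at 53.9 ± 9.89 CPM in injured and 42.4 ± 5.07 CPM in non-injured libraries (log2 fold change 0.35 ± 0.17 SE, edgeR adjusted p 0.348), with injured B inside the non-injured range. Eef1d, also an exchange subunit, stood at 44.7, 50.6 and 54.7 CPM in injured and 44.1, 43.9 and 42.3 CPM in non-injured A, B and C, which did not overlap, though injured A and non-injured A were close. Eef1g, the structural subunit, overlapped at 0.16 ± 0.16 (SE). Eef1e1, which belongs to the tRNA synthetase complex in spite of its name, had 4.41 ± 0.771 against 4.10 ± 0.964 CPM. Of the 5 tested methyltransferases of eEF1A and eEF2, 3 were positive and 2 negative and 0 passed, with log2 fold changes from -0.26 (Eef2kmt) to 0.33 (Eef1akmt1). Summed over all 14 genes, elongation factors took 1474 ± 142 CPM in injured and 1401 ± 99.9 CPM in non-injured libraries (exact two-sided permutation p = 0.6, n = 3 a group), and the 3 most abundant, Eef1a2, Eef2 and Eef1a1, made up 81.8% of that sum.

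The summed level of the initiation factor genes overlapped between injured and non-injured libraries. Their sum was 3076, 2974 and 3498 CPM in injured and 3586, 3218 and 3307 CPM in non-injured A, B and C. Injured C lay among the non-injured values, and injured A and B lay below all of them. The means were 3182 ± 278 and 3370 ± 192 CPM (SD, n = 3; exact two-sided permutation p = 0.4). The difference in mean log2 sum was -0.08, and it was -0.15 without injured C (exact p = 0.2) and -0.02 without both letter A libraries.

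Of the factors of start-codon choice, the low-level Eif1a differed the most in size. Eif1, which checks the start codon, stood at 118 ± 16.8 CPM in the injured libraries and 112 ± 11.3 in the others. Eif1ax, the X-linked gene of eIF1A, gave 27.3 ± 5.45 against 26.7 ± 3.69 CPM. The other eIF1A gene, Eif1a, stood at 7.78, 5.77 and 4.83 CPM in injured and 4.33, 3.43 and 4.14 CPM in non-injured A, B and C, apart between groups at 0.63 ± 0.30 on the log2 scale (SE, edgeR adjusted p 0.344, mean of 36.3 counts). Eif1b lay at 0.12 ± 0.25 (SE), and Eif1ad, included here by its symbol and not by a role in start-codon choice, at -0.23 ± 0.22 (SE).

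The genes of eIF2, of its exchange factor eIF2B and of the kinases that switch it off gave no call. Eif2s1 encodes the subunit that carries the regulatory phosphorylation site and stood at 14.4 ± 1.55 CPM in injured and 17.0 ± 1.34 CPM in non-injured libraries (log2 fold change -0.23 ± 0.18 SE, edgeR adjusted p 0.568). Eif2s2 gave 58.9 ± 9.42 against 59.1 ± 5.08 CPM. For eIF2B, 3 subunits were positive and 2 negative: Eif2b5, the catalytic subunit, was higher in all injured libraries by little (22.4, 25.4 and 22.9 against 21.3, 19.3 and 21.8 CPM), and Eif2b1 was lower in all (7.17, 10.3 and 9.51 against 12.1, 11.2 and 11.2 CPM). Neither passed (adjusted p 0.616 and 0.467). Subunits of this complex thus differed in sign, and its sum was 82.6 ± 8.46 against 78.9 ± 1.88 CPM.

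The eIF2 kinases respond to different stresses and none passed. Eif2ak1 (HRI, haem shortage) had the most reads of them, with 34.9, 25.6 and 24.7 CPM in injured and 38.4, 30.1 and 30.2 CPM in non-injured A, B and C. It was lower in the injured library of each letter, but the groups overlapped (log2 fold change -0.21 ± 0.18 SE, edgeR adjusted p 0.618). Eif2ak2 (PKR, double-stranded RNA) lay at 0.27 ± 0.24, Eif2ak3 (PERK, endoplasmic reticulum stress) at -0.19 ± 0.22 and Eif2ak4 (GCN2, amino acid shortage) at 0.15 ± 0.17. Genes that the transcription factor ATF4 and its partners induce when eIF2 is phosphorylated, listed together with Atf4 itself, gave no call either. Of the 10 in the list 8 were tested, 0 passed and 0 had an unadjusted p under 0.05, with a median of -0.09, 3 positive and 5 negative. The other 2, Trib3 and Asns, had too few counts to be tested. Asns, which makes asparagine, stood at 1.37, 2.88 and 1.14 CPM in injured and 0.382, 0.114 and 0.134 CPM in non-injured A, B and C, groups that did not overlap at a mean of 6.83 counts. Sesn2, an inhibitor of mTORC1 signalling, was tested and its groups did not overlap either (4.07 ± 0.705 against 2.72 ± 0.428 CPM, log2 fold change 0.58 ± 0.35 SE, edgeR adjusted p 0.457). Asns and Sesn2 were singled out after their values were seen. Atf4, among the 5 negative genes of the list, stood at 94.3 ± 10.6 against 103 ± 4.45 CPM.

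The eIF3 complex, the scaffold on the small ribosomal subunit, has 14 genes here, since Eif3j has 2 copies in the mouse whose reads may be shared. Of these, 8 were positive and 6 negative, from -0.35 (Eif3m) to 0.22 (Eif3b), with a median log2 fold change of 0.03. Eif3a, the largest subunit, varied little: 170, 175 and 168 CPM in injured and 170, 174 and 172 CPM in non-injured A, B and C. Eif3f, which the muscle ubiquitin ligase MAFbx is known to target, gave 32.9, 29.1 and 42.9 CPM in injured and 35.0, 36.1 and 34.1 CPM in non-injured A, B and C. Injured C was highest and injured B lowest, so the injured libraries enclosed the others. Eif3j1 was the 1 subunit whose groups lay apart (38.9, 36.9 and 40.0 against 47.2, 40.2 and 48.8 CPM, edgeR adjusted p 0.475). Its copy Eif3j2 had the opposite sign, at 0.10 on the log2 scale. Eif3j2 stood at 50.9, 43.5 and 53.1 CPM in injured and 57.9, 38.4 and 42.0 CPM in non-injured A, B and C, which overlapped. Counts of both copies were fractional, and the part of read assignment in their difference was not tested. Per kilobase of the principal transcript, non-injured means ran from 8.38 CPM (Eif3j1) to 33.6 CPM (Eif3a), and these per-length levels rest on the transcript model of each gene. The sum over the complex was 622 ± 55.8 CPM in injured and 621 ± 28.1 CPM in non-injured libraries.

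**Figure D4:**
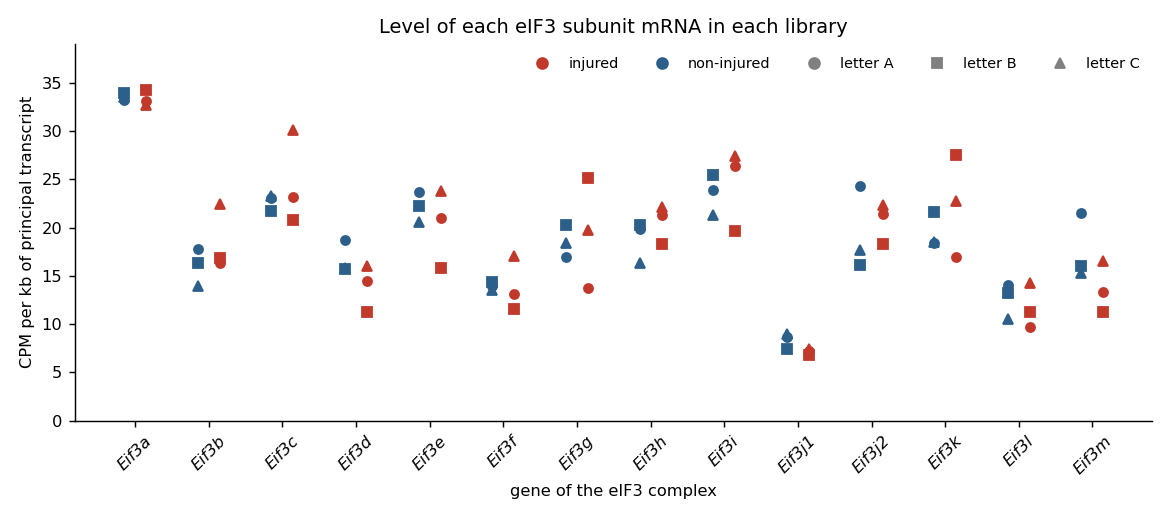
Level of the 14 eIF3 genes in each library, as CPM per kilobase of the principal GENCODE M21 transcript (y axis), with injured libraries in red, non-injured in blue and letters as shapes. Eif3a sits near 33 in all 6 libraries and Eif3j1 lowest, and red and blue overlap for every gene but Eif3j1.

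Of the eIF4 factors, the helicase eIF4A had negative signs in every letter, without a call. Eif4a2, the main eIF4A mRNA of this muscle (chromosome 16, 23107444 to 23114137), stood at 407, 485 and 624 CPM in injured and 660, 600 and 701 CPM in non-injured A, B and C. Its relative Eif4a1 (chromosome 11, 69666936 to 69672424) stood at 62.5, 89.7 and 105 CPM in injured and 100, 111 and 120 CPM in non-injured A, B and C. In both genes injured A was lowest and injured C reached into the non-injured range. The log2 fold changes were -0.37 ± 0.16 for Eif4a2 and -0.36 ± 0.18 for Eif4a1 (SE), with edgeR adjusted p of 0.313 and 0.363, while all of their 19 alternatives but 1, the block with the pair C left out (0.0188 and 0.0437), missed the threshold. Without injured A they were -0.25 for Eif4a2 and -0.19 for Eif4a1, and without injured C -0.57 and -0.56. Both were lower in the injured library of each letter, by 0.70, 0.31 and 0.17 for Eif4a2 and by 0.68, 0.31 and 0.19 for Eif4a1 on the log2 scale in A, B and C. The ratio of Eif4a2 to Eif4a1 counts was 5.96 ± 0.554 in injured and 5.95 ± 0.601 in non-injured libraries, unlike the ratio of the eEF1A forms. Per kilobase, Eif4a2 stood at 296 ± 23.0 and Eif4a1 at 62.2 ± 5.56 CPM in non-injured libraries. Eif4b and Eif4h, which stimulate the helicase, lay at 0.22 ± 0.14 and -0.02 ± 0.14. Eif4a3, a relative that works in the exon junction complex and not in initiation, lay at 0.17 ± 0.17.

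The cap-binding and scaffold genes overlapped between the groups. Eif4e (chromosome 3, 138526179 to 138559697), the cap-binding protein held back by the 4E-binding proteins, stood at 36.4, 14.9 and 24.7 CPM in injured and 36.7, 23.2 and 23.0 CPM in non-injured A, B and C. The letter A libraries of both groups were the highest and injured B the lowest of all (log2 fold change -0.12 ± 0.28 SE, edgeR adjusted p 0.872). Eif4e2, which binds caps without promoting initiation, gave 51.3 ± 3.16 against 59.0 ± 5.99 CPM. Eif4e3 (chromosome 6, 99625135 to 99666772), another cap-binding form, stood at 4.03, 4.68 and 6.58 CPM in injured and 6.19, 9.37 and 7.91 CPM in non-injured A, B and C. Injured C overlapped non-injured A, and the log2 fold change of -0.62 ± 0.28 (SE) had an adjusted p of 0.32. Among the scaffolds, Eif4g1 gave 351 ± 28.1 against 329 ± 23.2 CPM, Eif4g3 322 ± 25.1 against 345 ± 27.7 CPM, and the cap-independent relative Eif4g2 341 ± 57.7 against 359 ± 78.0 CPM. Like Eif4e, Eif4g2 was highest in letter A of both groups, at 394 and 448 CPM. Among initiation factors 11 of 49 genes (22.4%) were highest in letter A of both groups, against 18.0% of all genes. Lowest in letter B of both groups were 12 of 49 (24.5%), against 13.5% of all genes.

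**Figure D5:**
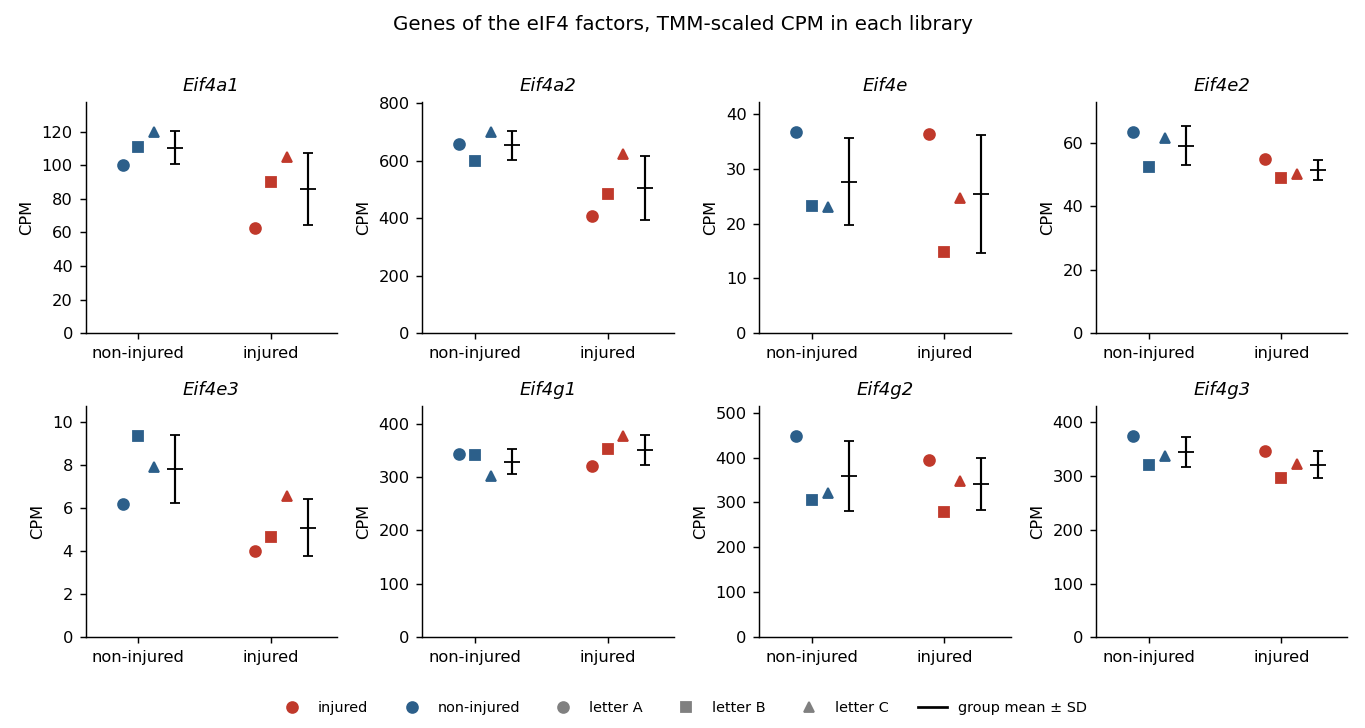
TMM-scaled CPM (y axes, from 0) of 8 eIF4 genes in each library, non-injured in blue and injured in red, with letters as shapes and the group mean ± SD (n = 3) as black bars. Eif4a1 and Eif4a2 share a pattern with injured A lowest, while Eif4e and Eif4g2 are highest in the letter A libraries of both groups.

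The late factors of initiation gave no call either. Eif5, which triggers GTP hydrolysis on eIF2, gave 94.7 ± 11.5 CPM in injured and 106 ± 8.63 CPM in non-injured libraries. Eif5b, which joins the subunits, gave 80.2 ± 7.68 against 77.5 ± 1.92 CPM. Eif5a, the hypusine-bearing factor that helps elongation and termination in spite of its name, gave 70.7 ± 9.05 against 69.6 ± 13.5 CPM. Eif6, which keeps the large subunit from joining too early and serves ribosome assembly, stood at 17.7, 14.9 and 20.9 CPM in injured and 15.0, 12.9 and 14.2 CPM in non-injured A, B and C. Only injured B fell inside the non-injured range, and the log2 fold change was 0.35 ± 0.18 (SE, edgeR adjusted p 0.395).

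Partners of these factors outside the group gave no call in the same test: of 77 genes tested in 10 lists, 0 passed. At an unadjusted p under 0.05 there were 2 higher and 4 lower. Over all genes 0.746% passed, and 15.4% had an unadjusted p under 0.05. With the letter block 1 passed as higher, where 3.21% of all genes did. That gene was Mknk2, which encodes a kinase that phosphorylates eIF4E. It stood at 115, 157 and 183 CPM in injured and 92.3, 93.7 and 91.6 CPM in non-injured A, B and C. All injured libraries lay above the narrow non-injured range, at a log2 fold change of 0.71 ± 0.17 (SE). The edgeR adjusted p was 0.0697, and 0.00467 with the block. Over its 19 alternatives the adjusted p ran from 0.000627 (the block without pair B) to 0.286 (without non-injured C). Mknk1, the other eIF4E kinase gene listed, had the opposite sign. Its CPM were 14.0, 15.5 and 13.5 in injured and 15.7, 16.5 and 15.6 in non-injured A, B and C. These groups did not overlap either, at a log2 fold change of -0.15 ± 0.17 (SE, edgeR adjusted p 0.732). The 4E-binding protein gene Eif4ebp1 stood at 16.5, 17.8 and 19.6 CPM in injured and 16.3, 12.5 and 12.6 CPM in non-injured A, B and C (adjusted p 0.341), and Eif4ebp2 gave 77.6 ± 10.6 against 62.3 ± 16.1 CPM. Pabpc1, the poly(A)-binding protein that meets eIF4G, gave 64.5 ± 11 against 49.2 ± 2.46 CPM (log2 fold change 0.39 ± 0.15 SE, adjusted p 0.251). By list, the members tested numbered 5 for 4E-binding proteins and eIF4E kinases (median log2 fold change 0.32), 2 for eIF2 phosphatase subunits (-0.18), 8 for poly(A)-binding proteins and partners (0.06) and 8 for termination and recycling (-0.06). They numbered 6 for accessory helicases and ABCF proteins (0.00014), 9 for hypusine and diphthamide enzymes (-0.04), 10 for mitochondrial translation factors (-0.28), 19 for cytosolic aminoacyl-tRNA synthetases (-0.01) and 2 for S6 kinases, which had opposite signs. Rps6kb1 stood at 37.8, 27.8 and 33.4 CPM in injured and 47.3, 40.5 and 39.7 CPM in non-injured A, B and C, all injured libraries below all others (log2 fold change -0.36 ± 0.16 SE, unadjusted p 0.038, edgeR adjusted p 0.295), and Rps6kb2 lay at 0.34 ± 0.20; both were named after their values were seen. Of the mitochondrial factors 1 of 10 had a positive sign, and 1 had an unadjusted p under 0.05.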

How the data were processed

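Values are estimated counts as the authors deposited them, in 1 table; 72.24% to 74.54% of a library's values are whole. The table's name says myonuclear, while per the labels' protocols total RNA was extracted, with no step for nuclei. Per the submitters' processing notes STAR 2.7.8a, Partek and DESeq2 were used and the builds are mm10 and hg19, with no roles given; the counting tool, strand setting and annotation version used are not given in the sources used, so reads of overlapping genes, antisense genes and near-identical copies cannot be told apart. The lowest row maximum was 10.0 counts. The estimated counts were rounded, filtered with filterByExpr (16095 genes left), scaled by TMM and tested with edgeR 4.0.16 (quasi-likelihood, two-sided, Benjamini-Hochberg) in R 4.3.3; SE is the absolute log2 fold change over the root of F. The edgeR fit without the letter block was tried on simulated data, and the fit with the block was not.

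The members and lists were chosen with earlier results of these data known. Named genes were members past the test in the fit with or without block, a panel of core factors, the 3 highest and 3 lowest changes per class among genes averaging 50 or more counts, and the 3 most abundant per class; members named beyond these complete a role. Deviations from group means correlated between same-letter libraries at 0.34 (A), 0.221 (B) and 0.12 (C), each above 0.1, so the letters were taken as pairs. Between libraries of different letters the values ran from -0.247 to 0.072 (injured B with non-injured C). The pairing was thus read from these same data and is not stated in the labels. It is not established, and results of the block depend on it. Alternatives were other scalings, filters, DESeq2 1.42.0, limma 3.58.1 (voom), the block, each library or letter A left out and, added after the data were seen, a robust prior, library totals before the filter, Eef1a1-ps1 joined to Eef1a1, and the block without each pair.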

Additional observations from a re-analysis of the deposited data

How the results depend on the processing

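Over all genes 115 were higher and 5 lower. The number higher was 252 with DESeq2, 53 with limma-voom and 516 with the replicate block (344, 388 and 434 without pair A, B or C), and 20 to 104 without 1 library. The number lower was 75 with DESeq2, 3 at a mean of at least 50 counts, 17 with no filter, 427 with the block (336, 208 and 306 without pair A, B or C), 30 with a robust prior, 132 without both letter A libraries, and 0 to 25 without 1 library.

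Eef1a1 had a log2 fold change of 0.71 and missed the threshold in the edgeR fit. It passed at 0.70 with DESeq2, 0.77 at a mean of at least 50 counts, 0.69 with the replicate block, 0.58, 0.89 and 0.60 with the block without pair A, B or C, 0.71 with a robust prior and 0.75 with upper-quartile scaling. Without 1 library it ran from 0.57 to 0.85, passing without injured B. The number of elongation genes higher, 0 at first, was therefore 1 in each of these settings, but 2 with the block without pair B, where Eef1b2 joined at 0.56; without 1 library it was 0 to 1. The number of initiation genes lower was 0 and became 2 with the block without pair C, at -0.51 for Eif4a1 and -0.52 for Eif4a2. The replicate block with all pairs changed no other call of a member, and of the other genes in the pathway lists it changed that of Mknk2, while among the cell type markers more passed, as given beside their counts. The summed CPM of elongation genes differed by 0.07 on the log2 scale, and by -0.0055 to 0.12 without 1 library. That of initiation genes differed by -0.08, and by -0.15 to -0.02 over its alternatives. The log2 ratio of Eef1a2 to Eef1a1 differed by -1.03 to -0.68 over its alternatives.

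Signs of members near 0 turned under some settings. Eif3f, at 0.0015, was at -0.0096 with DESeq2 and -0.0096 with its size factors, -0.00070 with totals before the filter, -0.015 with limma-voom, -0.046 with no filter, -0.014 with the block, -0.21 with the block without pair C and -0.19 to 0.12 without 1 library. Eif2s2, at -0.0023, was at 0.063 at a mean of at least 50 counts, 0.062 with the block without pair B, 0.044 with upper-quartile scaling and -0.090 to 0.13 without 1 library. Eif5a, at 0.03, was at -0.022 with no filter, -0.21 with the block without pair C and -0.12 to 0.17 without 1 library. With the block without pair C, Eef1g was at -0.090 and Eif4g1 at -0.039, and without pair B Eif2ak3 was at 0.018 and Eif4e at 0.052. Without 1 library Eef1g ran from -0.00068 to 0.25, Eif4e from -0.49 to 0.15 and Eif4g2 from -0.20 to 0.099. Of the values of the single named members other than Eef1a1 and Eef1a2, 405 kept their direction and their side of the threshold, 29 changed sign and 3 newly passed; Eef1a1 newly passed in 9 of 19 alternatives and Eef1a2 in 0; the cause of the changes was not tested.

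With 3 libraries a group, exact permutation tests cannot go below 0.1, and exact tests over 3 same-letter pairs cannot go below 0.25. Depth limits the 8 members with a mean under 50 counts, and 2 members were not tested.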
